A study of Mus musculus with 24 samples.

Results

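A set of 10 transcriptional regulators of the B lineage was followed through B cell development in mouse bone marrow, in mice with both or 1 of their Vhl alleles floxed. They are the factors Ebf1, Pax5, Foxo1, Spi1 (PU.1), Spib (Spi-B), Irf4, Irf8, Ikzf1 (Ikaros) and Ikzf3 (Aiolos) and the coactivator Pou2af1 (OCA-B, also called BOB.1). They were taken by gene symbol, 10 of the 24421 genes of the count table, and all 10 passed the filter on low counts. RNA came from 3 bone marrow populations labelled proBpreB (pro-B and pre-B cells in 1 sort), immature and mature B cells. All 8 mice carried Mb1-Cre on 1 allele, a recombinase under control of a promoter active from early in the B lineage. In 4 mice both Vhl alleles were floxed (flanked by lox sites, written flox/flox), and 4 mice had 1 floxed and 1 WT allele (flox/WT), so the controls carried the recombinase and 1 floxed allele too. Each mouse gave 1 library of each population, which makes 24 libraries in 6 groups of 4. The gates of the sort and the age and sex of the mice were not given in the sources used here.

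Ebf1 and Pax5 establish and maintain B cell identity, and Pax5 does so both by activating B lineage genes and by repressing genes of other lineages. PU.1, an ETS factor, acts before them in multipotent progenitors and shares much of its later work in B cells with its relative Spi-B, while Irf4 and Irf8 bind DNA together with either of the pair. Foxo1 drives the recombination genes Rag1 and Rag2 and the interleukin 7 receptor, and its activity falls when PI3 kinase signals. Ikaros and Aiolos are zinc finger factors that help to end the proliferation of pre-B cells, and OCA-B binds the octamer factors Oct-1 and Oct-2 on immunoglobulin and other B cell promoters. Vhl encodes the receptor by which a ubiquitin ligase recognises hypoxia-inducible factor (HIF) when oxygen is present, and HIF, which is then degraded, otherwise binds DNA at a short core, ACGTG or GCGTG.

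Library totals lay between 7850186 and 11863949 counts, which makes a count of 3 worth 0.253 to 0.382 CPM (counts relative to the library's total, on a fixed scale). All levels below are CPM after scaling library totals by TMM (trimmed mean of M-values), which compares a gene between libraries, and replicates 1 to 4 are 4 mice. The labels were checked on Vhl, which averaged 10.2 ± 3.37 CPM in flox/flox mice, and 25.3 ± 2.02 CPM in flox/WT mice in proBpreB cells (n = 4 each, SD). It averaged 5.58 ± 2.31 CPM in flox/flox mice, and 35.5 ± 8.88 CPM in flox/WT mice in immature cells and 7.60 ± 1.90 CPM in flox/flox mice, and 29.1 ± 2.81 CPM in flox/WT mice in mature cells, and the genotypes did not overlap in any of the 3 populations. The position of the lox sites was not given in the sources used here, and counts outside the deleted part can remain. Summed over 10 markers of pro-B and pre-B cells, proBpreB libraries held 2551 to 3304 CPM in flox/flox mice, and 2261 to 3429 CPM in flox/WT mice, immature libraries 275 to 333 CPM (flox/flox) and 170.3 to 238 CPM (flox/WT), and mature libraries 113 to 131 CPM (flox/flox) and 61.8 to 96.1 CPM (flox/WT). The markers of mature B cells were lowest in proBpreB and highest in mature libraries. In bulk RNA of a sorted population, fewer cells of a type and less RNA per cell cannot be told apart.

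The upstream sequences of Foxo1 and Pou2af1 are shown because these 2 genes carried the genotype differences of immature and mature cells. Each is the 250 bases before a RefSeq transcript start, read 5′ to 3′ on the strand of the gene from the RefSeq promoter table of GRCm38.p6. Foxo1 is at chr3:52268087-52268336 and Pou2af1 at chr9:51213440-51213689, both on the plus strand. Capitals mark a HIF core on either strand (CACGC in Foxo1 is GCGTG read from the other strand) and, in Foxo1, also a match to the palindromic EBF motif.

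Foxo1: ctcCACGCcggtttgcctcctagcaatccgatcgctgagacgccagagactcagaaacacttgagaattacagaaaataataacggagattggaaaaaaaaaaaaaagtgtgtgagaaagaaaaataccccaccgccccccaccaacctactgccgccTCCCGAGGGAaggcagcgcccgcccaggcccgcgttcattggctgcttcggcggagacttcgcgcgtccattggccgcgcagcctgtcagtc

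Pou2af1: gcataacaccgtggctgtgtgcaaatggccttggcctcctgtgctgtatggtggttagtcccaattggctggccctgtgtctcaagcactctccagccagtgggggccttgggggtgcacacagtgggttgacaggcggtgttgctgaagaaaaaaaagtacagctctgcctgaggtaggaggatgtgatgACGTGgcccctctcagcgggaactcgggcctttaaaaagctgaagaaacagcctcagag

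The HIF core of Foxo1 began 247 bases and its EBF match 92 bases before the start, and the HIF core of Pou2af1 began 59 bases before it. Over all 8 members with an entry in the table (Spi1 and Ikzf3 had none), 6 of 11 entries held a HIF core in these 250 bases. For comparison, 38.6% of the 32851 promoters in the table held ACGTG or GCGTG on either strand. The EBF motif was in 0.779% of them, and the octamer ATGCAAAT and the forkhead motif TGTTTAC were in 0 entries of the members, against 1.6% and 3.17% of all promoters. The ETS core AGGAAG was in 1 entry of the members and in 29.5% of all promoters. A match is a description of the letters and says nothing of occupancy in these cells.

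The members called by Vhl genotype were Spi1 and Ikzf3 in proBpreB cells and Foxo1 and Pou2af1 in immature and mature cells. Spi1 and Ikzf3 were lower in flox/flox mice, and 0 members were higher there. Foxo1 and Pou2af1 were higher in flox/flox mice in both later populations, and 0 members were lower. Ebf1, Pax5, Ikzf1, Irf4, Irf8 and Spib did not pass the test in any of the 3 populations. Calls are from edgeR's quasi-likelihood test across 12850 genes with Benjamini-Hochberg adjustment within a comparison, at an adjusted p of 0.05. The 2 of 10 members called lower in proBpreB cells compare with 2.75% of all tested genes lower and 3.38% higher. The 2 of 10 called higher in immature cells compare with 10.2% of genes higher and 10.5% lower. The 2 of 10 called higher in mature cells compare with 9.69% higher and 6.62% lower. The median log2 fold change of the 10 members was -0.31 in proBpreB cells, 0.18 in immature cells and -0.08 in mature cells, while the median of all tested genes lay within 0.01 of 0 in each comparison.

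**Figure D1:**
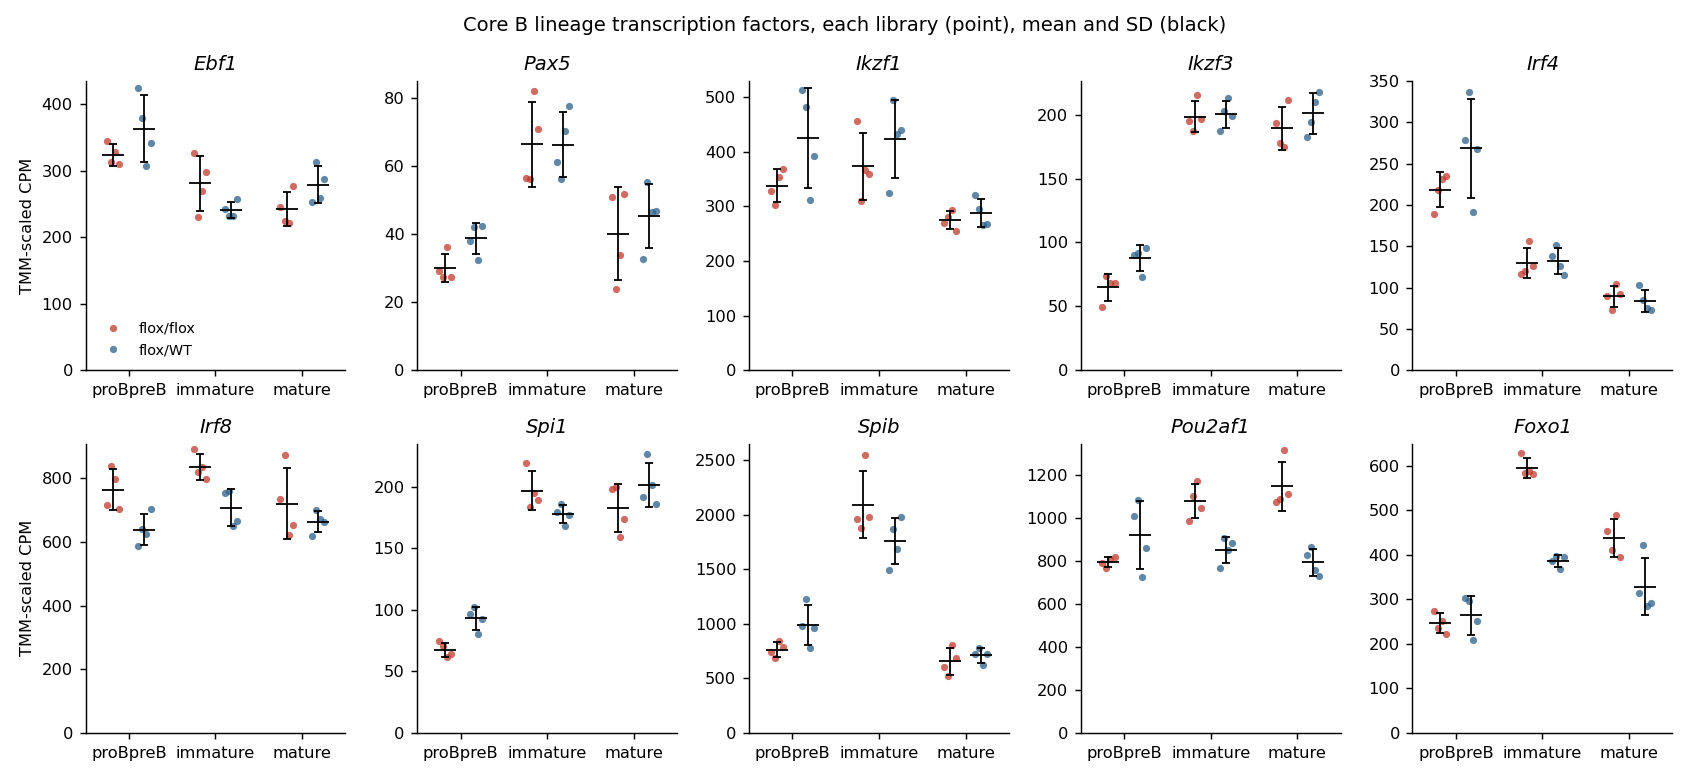
TMM-scaled CPM of the 10 members in every library, by population and genotype (flox/flox left and red, flox/WT right and blue); points are mice, and black lines give the mean and SD of 4. Foxo1 of immature cells and Pou2af1 of immature and mature cells separate by genotype without overlap, and Spi1 of proBpreB cells separates the other way. Irf8, which has no genotype call, also separates in proBpreB and immature cells, with flox/flox higher.

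**Figure D2:**
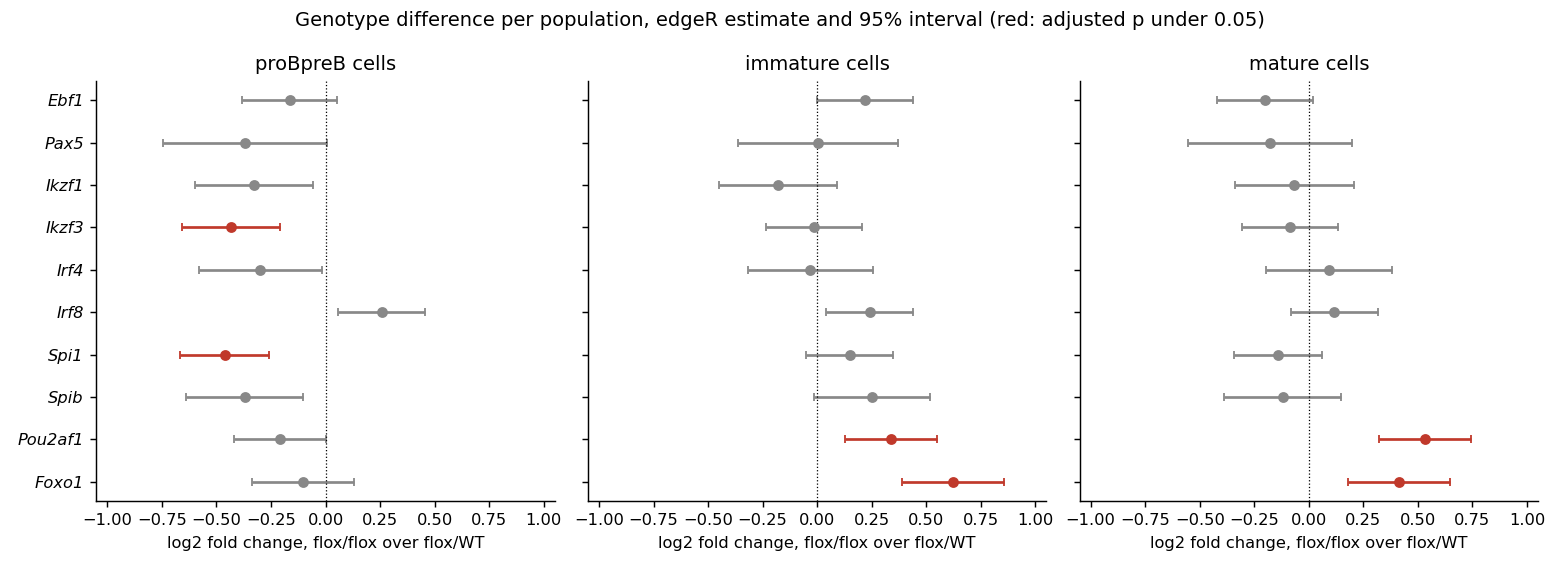
Log2 fold change of flox/flox over flox/WT for each member in proBpreB, immature and mature cells, with the 95% interval of the edgeR estimate; red marks an adjusted p under 0.05. In proBpreB cells 9 of 10 estimates lie below 0, and in immature and mature cells only Pou2af1 and Foxo1 are marked.

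Foxo1 (chromosome 3, 52268336 to 52353221, plus strand, GRCm38), the forkhead factor upstream of the recombination genes, was higher in flox/flox immature and mature cells and did not differ by the test in proBpreB cells. In proBpreB cells it measured 275, 236, 252 and 222 CPM in flox/flox mice, and 302, 296, 208 and 252 CPM in flox/WT mice, in replicates 1 to 4, and the 2 genotypes overlapped. In immature cells it stood at 629, 584, 589 and 581 CPM in flox/flox mice, and 386, 398, 369 and 394 CPM in flox/WT mice. The lowest flox/flox library was thus well above the highest flox/WT library, and the 4 libraries of each genotype lay close together. In mature cells Foxo1 measured 453, 410.4, 489.9 and 396 CPM in flox/flox mice, and 315, 422, 285 and 293 CPM in flox/WT mice. Only replicate 2 of the flox/WT mice reached into the flox/flox range. The log2 fold change by edgeR was 0.62 ± 0.12, adjusted p = 0.00029 in immature cells (SE), 0.41 ± 0.12, adjusted p = 0.0167 in mature cells and -0.10 ± 0.12, adjusted p = 0.71 in proBpreB cells. The adjusted p in mature cells was above 0.05 with 1 mouse left out, at 0.0517 for flox/flox replicate 1, 0.0865 for flox/flox replicate 3, 0.0519 for flox/WT replicate 3 and 0.0809 for flox/WT replicate 4, and when only the groups compared were fitted (0.0637).

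Across the stages, Foxo1 had its highest mean in immature cells of both genotypes. Immature over proBpreB cells gave a log2 fold change of 1.27 ± 0.12, adjusted p = 6.37e-10 in flox/flox mice and 0.55 ± 0.12, adjusted p = 0.000388 in flox/WT mice by edgeR. From immature cells on, the estimate for mature cells was -0.45 ± 0.12, adjusted p = 0.00575 in flox/flox mice and -0.24 ± 0.12, adjusted p = 0.134 in flox/WT mice. With the mouse as a block, the edgeR value in flox/WT mice was -0.25 with an adjusted p of 0.0472, which is past the threshold, and without flox/WT replicate 2 it was -0.37 with an adjusted p of 0.0255. Mature over proBpreB cells gave 0.83 ± 0.12, adjusted p = 1.06e-06 in flox/flox and 0.31 ± 0.12, adjusted p = 0.0266 in flox/WT mice by edgeR. The flox/WT call was lost under RLE scaling (adjusted p = 0.0527), with DESeq2 (0.051), in a fit of only the groups compared (0.133) and without flox/WT replicate 2 (0.131) or 3 (0.0682). Antisense to Foxo1, Gm20402 shares 674 exonic bases in the GENCODE vM21 annotation and has no row in the count table. Whether the counting used strand was not given in the sources used here.

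Ebf1 (chromosome 11, 44617317 to 45008091, plus strand), the factor that specifies the B lineage, had its highest mean in proBpreB cells of both genotypes and had no genotype call. It measured 345, 312, 328 and 310.0 CPM in flox/flox mice, and 424, 379.7, 308 and 341 CPM in flox/WT mice in proBpreB cells. In immature cells Ebf1 measured 326, 230.1, 269.9 and 297 CPM in flox/flox mice, and 242, 232, 232 and 257 CPM in flox/WT mice. Replicate 1 of the flox/flox mice was the highest immature library, and the genotypes overlapped in both populations. In mature cells Ebf1 measured 246, 224, 221 and 277 CPM in flox/flox mice, and 253, 314, 259.5 and 288 CPM in flox/WT mice, again with overlap. The genotype estimates were -0.17 ± 0.11, adjusted p = 0.461 in proBpreB cells, 0.22 ± 0.11, adjusted p = 0.172 in immature cells and -0.20 ± 0.11, adjusted p = 0.235 in mature cells (edgeR, log2 ± SE). Immature over proBpreB cells gave -0.21 ± 0.11, adjusted p = 0.121 in flox/flox mice and -0.59 ± 0.11, adjusted p = 7.28e-05 in flox/WT mice, so that by edgeR the fall was called in flox/WT mice, while in flox/flox mice it was called under upper-quartile scaling (adjusted p = 0.0403) and not in the other fits of all mice. A test of the difference between these 2 steps gave 0.39 ± 0.16, adjusted p = 0.124. Mature cells were below proBpreB cells in both genotypes, with -0.42 ± 0.11, adjusted p = 0.00212 in flox/flox and -0.38 ± 0.11, adjusted p = 0.0045 in flox/WT mice by edgeR, the second of which was lost without flox/WT replicate 1 (adjusted p = 0.084).

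Pax5 (chromosome 4, 44524757 to 44710487, minus strand), the factor that holds cells in the B lineage, was the least abundant member per length and peaked in immature cells. Per kilobase of exon it averaged 4.84 ± 0.58 CPM in proBpreB cells, 8.28 ± 1.19 CPM in immature cells and 5.67 ± 1.18 CPM in mature cells of flox/WT mice (SD, n = 4), where Spib of immature cells reached 629.7 ± 75.8 CPM per kb. Pax5 measured 29.2, 27.3, 36.1 and 27.4 CPM in flox/flox mice, and 38.0, 42.1, 32.5 and 42.4 CPM in flox/WT mice in proBpreB cells. In immature cells it measured 56.5, 56.2, 82.1 and 71.0 CPM in flox/flox mice, and 61.1, 56.1, 70.2 and 77.7 CPM in flox/WT mice. In mature cells the values were 50.9, 24.0, 33.9 and 52.0 CPM in flox/flox mice, and 32.7, 55.5, 46.5 and 46.9 CPM in flox/WT mice. The libraries of immature cells all lay above those of proBpreB cells, the mature libraries spread widely from mouse to mouse, and the genotypes overlapped in all 3 populations. The rise to immature cells was 1.15 ± 0.19, adjusted p = 1.17e-05 in flox/flox and 0.78 ± 0.19, adjusted p = 0.0012 in flox/WT mice (edgeR, log2 ± SE). Mature over immature cells gave -0.73 ± 0.19, adjusted p = 0.00465 in flox/flox and -0.55 ± 0.19, adjusted p = 0.0263 in flox/WT mice. These calls depended on single mice, with adjusted p = 0.0759 without flox/flox replicate 3, and 0.109, 0.0869 and 0.129 without flox/WT replicates 1, 3 and 4. Mature over proBpreB cells gave 0.42, adjusted p = 0.0615 in flox/flox mice, and passed without flox/flox replicate 2 (0.56, adjusted p = 0.0158) or 3 (0.59, adjusted p = 0.0241). The genotype estimates were -0.37 ± 0.19 in proBpreB cells, 0.00 ± 0.19 in immature cells and -0.18 ± 0.19 in mature cells, with adjusted p = 0.308, 0.995 and 0.575.

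Spi1 (chromosome 2, 91082390 to 91115756, plus strand), which encodes PU.1, was lower in proBpreB cells of flox/flox mice. It measured 74.3, 70.5, 61.7 and 63.9 CPM in flox/flox mice, and 97.1, 103, 80.1 and 92.7 CPM in flox/WT mice in proBpreB cells. All 4 flox/flox libraries lay below all 4 flox/WT libraries. The log2 fold change was -0.46 ± 0.10, adjusted p = 0.00451 by edgeR, a level 27.4% lower, and it kept its call without each mouse in turn and under all 7 other settings, with adjusted p-values of up to 0.0364. In immature cells Spi1 measured 219.6, 184, 195 and 189 CPM in flox/flox mice, and 179, 186, 168 and 177 CPM in flox/WT mice. In mature cells it measured 198, 199.6, 159 and 174 CPM in flox/flox mice, and 192, 227, 201 and 186 CPM in flox/WT mice. The genotypes overlapped in both populations, with edgeR estimates of 0.15 ± 0.10, adjusted p = 0.334 in immature and -0.14 ± 0.10, adjusted p = 0.376 in mature cells. Spi1 was higher in immature than in proBpreB cells in both genotypes, by 1.54 ± 0.11, adjusted p = 6.88e-13 in flox/flox and 0.93 ± 0.10, adjusted p = 1.68e-08 in flox/WT mice on the log2 scale. Mature over immature cells gave -0.11 ± 0.10, adjusted p = 0.482 in flox/flox and 0.18 ± 0.10, adjusted p = 0.178 in flox/WT mice.

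Spib (chromosome 7, 44525993 to 44532071, minus strand), the B cell relative of Spi1, peaked in immature cells and had the largest fall of the members from there to mature cells. It measured 737, 684, 843 and 787 CPM in flox/flox mice, and 978, 1229.7, 777 and 962 CPM in flox/WT mice in proBpreB cells. Immature libraries held 1958, 1874, 2547 and 1978 CPM in flox/flox mice, and 1496, 1867, 1682 and 1977 CPM in flox/WT mice. Mature libraries held 608, 518, 808 and 685 CPM in flox/flox mice, and 726, 777, 618 and 727 CPM in flox/WT mice. Every immature library exceeded every library of the other populations, replicate 3 of the immature flox/flox mice stood above the rest, and the genotypes overlapped in each population. Immature over proBpreB cells gave 1.45 ± 0.14, adjusted p = 7e-10 in flox/flox and 0.83 ± 0.14, adjusted p = 1.15e-05 in flox/WT mice, and mature over immature cells -1.67 ± 0.14, adjusted p = 2.19e-10 in flox/flox and -1.30 ± 0.14, adjusted p = 1.63e-08 in flox/WT mice (edgeR, log2 ± SE). The genotype estimates were -0.37 ± 0.14, adjusted p = 0.113 in proBpreB cells, 0.25 ± 0.14, adjusted p = 0.206 in immature cells and -0.12 ± 0.14, adjusted p = 0.599 in mature cells. Without flox/WT replicate 3, Spib was called lower in flox/flox proBpreB cells, at -0.47 with an adjusted p of 0.0451. Mature over proBpreB cells gave -0.22 ± 0.14, adjusted p = 0.169 in flox/flox mice, where the fit with the mouse as a block gave -0.23 with an adjusted p of 0.0408, and -0.47 ± 0.14, adjusted p = 0.00427 in flox/WT mice.

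Irf4 and Irf8 behaved unlike each other over the stages. Irf4 (chromosome 13, 30749226 to 30766976, plus strand), which acts in light chain rearrangement and again in plasma cells, fell at each step. It measured 189, 218, 231 and 235 CPM in flox/flox mice, and 278, 337, 191 and 268 CPM in flox/WT mice in proBpreB cells. In immature cells the level was 116, 121, 156 and 126 CPM in flox/flox mice, and 138, 151, 126 and 115 CPM in flox/WT mice. In mature cells the level was 89.7, 72.9, 104 and 91.7 CPM in flox/flox mice, and 103, 85.2, 75.5 and 73.3 CPM in flox/WT mice. Within each genotype the 3 populations did not overlap, and between genotypes each population did. Immature over proBpreB cells gave -0.75 ± 0.15, adjusted p = 7.96e-05 in flox/flox and -1.02 ± 0.15, adjusted p = 1.27e-06 in flox/WT mice, and mature over immature cells -0.53 ± 0.15, adjusted p = 0.00698 in flox/flox and -0.65 ± 0.15, adjusted p = 0.000888 in flox/WT mice (edgeR, log2 ± SE). The genotype estimates for Irf4 were -0.30 ± 0.14, adjusted p = 0.263 in proBpreB cells, -0.03 ± 0.15, adjusted p = 0.915 in immature cells and 0.09 ± 0.15, adjusted p = 0.727 in mature cells.

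Irf8 (chromosome 8, 120736358 to 120756694, plus strand), which acts in early B cells and in dendritic cells and monocytes, was the member with the smallest change over the stages, and was called in 0 of the 12 comparisons when all mice were kept. Without flox/flox replicate 2, mature over immature cells was called lower in flox/flox mice, at -0.33 with an adjusted p of 0.0289, against -0.22 with 0.119 for all mice. In proBpreB cells it measured 718, 838, 798 and 703 CPM in flox/flox mice, and 589, 641, 626 and 703 CPM in flox/WT mice. Among immature libraries it was 894, 820.0, 836 and 799.5 CPM in flox/flox mice, and 754, 761, 649.6 and 667 CPM in flox/WT mice. The flox/flox libraries lay above the flox/WT libraries in both populations, in proBpreB cells by less than 1 CPM, since flox/flox replicate 4 and flox/WT replicate 4 were nearly equal. In mature cells Irf8 measured 734, 873, 623 and 653 CPM in flox/flox mice, and 619.9, 702, 671 and 665 CPM in flox/WT mice, with overlap. The genotype estimates were 0.26 ± 0.10, adjusted p = 0.147 in proBpreB cells, 0.24 ± 0.10, adjusted p = 0.0917 in immature cells and 0.12 ± 0.10, adjusted p = 0.473 in mature cells by edgeR, so the higher means of flox/flox mice did not pass the adjustment over all genes. The stage estimates of Irf8 lay between -0.22 and 0.15 over both genotypes.

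Ikzf3 (chromosome 11, 98464902 to 98546031, minus strand), which encodes Aiolos, was lower in proBpreB cells of flox/flox mice and had no genotype call in the later populations. In proBpreB cells it measured 49.1, 73.7, 68.2 and 68.2 CPM in flox/flox mice, and 90.0, 91.9, 72.8 and 95.6 CPM in flox/WT mice. Replicate 1 was the lowest of the flox/flox mice, and replicate 2 of the flox/flox mice just passed replicate 3 of the flox/WT mice, the only overlap. The log2 fold change was -0.43 ± 0.11, adjusted p = 0.0171 by edgeR. It did not hold without flox/flox replicate 1 (-0.32, adjusted p = 0.13), without flox/WT replicate 2 (0.0581) or 4 (0.099), and in a fit of only the groups compared (0.0557). In immature cells Ikzf3 measured 195, 187, 215 and 197 CPM in flox/flox mice, and 187, 203, 213 and 199 CPM in flox/WT mice. In mature cells the values were 194, 177, 175 and 211 CPM in flox/flox mice, and 182, 194, 210.1 and 218 CPM in flox/WT mice. Both populations lay above every proBpreB library, with edgeR steps from proBpreB to immature cells of 1.61 ± 0.12, adjusted p = 1.79e-12 in flox/flox and 1.19 ± 0.11, adjusted p = 9.04e-10 in flox/WT mice. Mature over immature cells gave -0.07 ± 0.11 in flox/flox and 0.01 ± 0.11 in flox/WT mice, and the genotype estimate was -0.01 ± 0.11, adjusted p = 0.955 in immature and -0.09 ± 0.11, adjusted p = 0.648 in mature cells.

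Ikzf1 (chromosome 11, 11685003 to 11772926, plus strand), which encodes Ikaros, was lowest in mature cells of both genotypes. It measured 328, 302, 353 and 369 CPM in flox/flox mice, and 513, 482, 311 and 391 CPM in flox/WT mice in proBpreB cells. Immature cells gave 457, 310.2, 366.6 and 359 CPM in flox/flox mice, and 324, 495, 433 and 439 CPM in flox/WT mice. Mature cells gave 269, 281, 293 and 255 CPM in flox/flox mice, and 321, 294, 266 and 267 CPM in flox/WT mice. The genotypes overlapped in each population, and the flox/WT proBpreB libraries were the most spread. Mature over immature cells gave -0.44 ± 0.14, adjusted p = 0.0169 in flox/flox and -0.56 ± 0.14, adjusted p = 0.00236 in flox/WT mice by edgeR. In flox/flox mice that call was lost without replicate 1 (adjusted p = 0.16) or 4 (0.0757). Mature over proBpreB cells gave -0.30 ± 0.14, adjusted p = 0.0622 in flox/flox and -0.56 ± 0.14, adjusted p = 0.000945 in flox/WT mice. The flox/flox value was called lower under 5 of the 7 other settings, DESeq2 among them (adjusted p = 0.0421), with adjusted p-values over the 7 of 0.0103 to 0.0805, and also without flox/WT replicate 1 (0.0331) or 3 (0.0445). The genotype estimates were -0.33 ± 0.14, adjusted p = 0.18 in proBpreB cells, -0.18 ± 0.14, adjusted p = 0.392 in immature cells and -0.07 ± 0.14, adjusted p = 0.796 in mature cells.

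Pou2af1 (chromosome 9, 51213708 to 51240080, plus strand), which encodes the coactivator OCA-B, was higher in immature and mature cells of flox/flox mice. In proBpreB cells it measured 789.5, 764, 806 and 818 CPM in flox/flox mice, and 1008, 1080.0, 725 and 858 CPM in flox/WT mice. The flox/WT libraries were the more spread and lay on both sides of the flox/flox libraries. Immature cells had 984, 1099, 1171 and 1046 CPM in flox/flox mice, and 768, 905, 848 and 879.9 CPM in flox/WT mice. Mature cells had 1071, 1087, 1314 and 1112 CPM in flox/flox mice, and 827, 863, 755 and 728 CPM in flox/WT mice. In both populations all 4 flox/flox libraries exceeded all 4 flox/WT libraries. The log2 fold change was 0.34 ± 0.11, adjusted p = 0.0236 in immature and 0.53 ± 0.11, adjusted p = 0.000787 in mature cells, and -0.21 ± 0.11, adjusted p = 0.304 in proBpreB cells, by edgeR. The adjusted p in immature cells was above 0.05 with 1 mouse left out, at 0.0628, 0.071 and 0.0539 for replicates 2, 3 and 4 of the flox/flox mice and 0.0716 for replicate 1 of the flox/WT mice. The call in mature cells held without each mouse in turn and under the 7 other settings, with adjusted p-values of up to 0.00846.

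The stages moved Pou2af1 in flox/flox mice and not, by the test, in flox/WT mice. Immature over proBpreB cells gave 0.44 ± 0.11, adjusted p = 0.00108 in flox/flox and -0.11 ± 0.11, adjusted p = 0.409 in flox/WT mice (edgeR, log2 ± SE). Mature over proBpreB cells gave 0.53 ± 0.11, adjusted p = 0.000121 in flox/flox and -0.21 ± 0.11, adjusted p = 0.0933 in flox/WT mice. The last value passed the threshold under RLE scaling (adjusted p = 0.0449), upper-quartile scaling (0.0484), with DESeq2 (0.034) and without flox/WT replicate 3 (0.0392), as a fall in flox/WT mice.

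Other cells also transcribe members of the set, Spi1 in myeloid cells, and Spib and Irf8 in plasmacytoid dendritic cells. The summed CPM of 12 myeloid markers was 3305 to 4196 in flox/flox and 3152 to 4764 in flox/WT proBpreB cells. In immature cells it was 9673 to 12782 in flox/flox and 6349 to 7465 in flox/WT mice, and in mature cells 10155 to 16268 in flox/flox and 9336 to 14324 in flox/WT mice. The ranges of the 2 genotypes overlapped in proBpreB and in mature cells and did not in immature cells. For 10 markers of plasmacytoid dendritic cells the sums were 692 to 1264 CPM in flox/flox proBpreB cells, against 595 to 905 CPM in flox/WT proBpreB cells, 255 to 289 CPM (flox/flox) and 135 to 242 CPM (flox/WT) in immature cells, and 171 to 303 CPM (flox/flox) and 150.0 to 265 CPM (flox/WT) in mature cells. Siglech, a defining marker of these cells, measured 259 to 453 CPM in flox/flox proBpreB cells, against 218 to 304 CPM in flox/WT proBpreB cells. Neither list had a marker at 0 in any group. In proBpreB cells, 10 markers of mature B cells summed to 1497 to 2097 CPM in flox/flox and 2013 to 2623 CPM in flox/WT mice, with overlap. By edgeR, 7 of these markers were lower in flox/flox proBpreB cells and 1 was higher. Of all tested genes, 2.75% were lower and 3.38% higher there. Among them, Fcer2a (CD23) measured 3.37 to 7.26 CPM in flox/flox mice, and 7.47 to 19.3 CPM in flox/WT mice. In flox/flox immature cells, where Foxo1 and Pou2af1 were higher, 8 erythroid markers summed to 5315 to 9764 CPM, against 1326 to 4108 CPM in flox/WT mice, and in mature cells, where the ranges overlapped, to 4069.6 to 10909 CPM, against 2016 to 5584 CPM in flox/WT mice. The sum of 8 natural killer cell markers separated the genotypes in both populations, with 38.6 to 55.3 CPM in flox/flox immature cells, against 21.7 to 37.3 CPM in flox/WT immature cells, and 65.3 to 89.6 CPM in flox/flox mature cells, against 31.6 to 52.7 CPM in flox/WT mature cells. In proBpreB cells it was 255 to 386 CPM in flox/flox mice, against 192 to 269 CPM in flox/WT mice. By edgeR, 2 of these 8 were higher in immature and 3 in mature flox/flox cells, and 0 were lower. Of all tested genes, 10.2% and 9.69% were higher. The sum of pro-B and pre-B markers, given above, also separated the genotypes in immature and mature cells, with flox/flox higher. Of those 10 markers, 4 were higher and 1 lower in immature cells, and 3 higher and 0 lower in mature cells. The sum of mature B cell markers was 19145 to 23721 CPM in flox/flox immature cells, against 24377 to 28266 CPM in flox/WT immature cells, and 34825 to 41499 CPM in flox/flox mature cells, against 45505 to 62444 CPM in flox/WT mature cells. Abundant genes weigh most in such a sum. By edgeR, 4 of the 10 mature B cell markers were lower in immature and 2 in mature flox/flox cells, and 0 were higher. Their median log2 fold changes were -0.23 and -0.14, and 10.5% and 6.62% of all tested genes were lower. The part of any of these cells in the differences of the members was not tested.

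The genotype effect itself differed between immature and proBpreB cells for 4 members by edgeR. Immature minus proBpreB cells gave a difference in log2 fold change of 0.73 ± 0.17, adjusted p = 0.00513 for Foxo1, 0.61 ± 0.15, adjusted p = 0.00617 for Spi1, 0.62 ± 0.19, adjusted p = 0.0356 for Spib and 0.55 ± 0.15, adjusted p = 0.0177 for Pou2af1 (edgeR interaction contrast, SE). All 4 were positive, and 9 of the 10 members had a positive estimate, with Irf8 at -0.02. These 4 of 10 compare with 4.72% of all tested genes called higher and 6.14% called lower in this contrast. For all 4 the genotype estimate was below 0 in proBpreB and above 0 in immature cells. Spi1 was called by genotype in proBpreB and not in immature cells. Foxo1 and Pou2af1 were called in immature and not in proBpreB cells, and Spib in neither. Ikzf3 gave 0.42, adjusted p = 0.0927 by edgeR and was called with DESeq2, which called 5 members, at 0.43 with an adjusted p of 0.0453. The Spib difference was lost without 7 of the 8 mice, left out in turn, with adjusted p-values of 0.0534 to 0.108, and kept without flox/WT replicate 3. The Pou2af1 difference did not hold without flox/flox replicate 2 (adjusted p = 0.0632) and without flox/WT replicate 1 (0.0626) or 2 (0.0539).

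Mature minus proBpreB cells gave 1 called difference by edgeR, for Pou2af1, of 0.74 ± 0.15, adjusted p = 0.00434. This 1 of 10 called higher compares with 2.27% of all tested genes higher and 0.786% lower. Foxo1 gave 0.52 ± 0.17, adjusted p = 0.101, and was past the threshold with the mouse as a block (0.52, adjusted p = 0.0355), with DESeq2 (0.53, adjusted p = 0.0468) and without flox/WT replicate 2 (0.62, adjusted p = 0.0414). Mature minus immature cells gave 0 of 10 members past the threshold by edgeR, where 5.51% of all tested genes were called higher and 2.23% lower. In that contrast 1 member had an unadjusted p under 0.05, and DESeq2 called 0 members. The 3 contrasts share libraries, so their values are not independent of each other.

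In proBpreB cells the flox/WT libraries set much of the spread. Replicate 3 was the lowest of the 4 flox/WT mice for 9 of the 10 members, Irf8 being the exception. The share of all tested genes that were lowest in this library was not determined, so the count cannot be read as particular to the members. The same library held the most of both surrogate light chain genes, Igll1 and Vpreb1, which mark pro-B and early pre-B cells. Igll1 measured 686, 608, 502 and 657 CPM in flox/flox mice, and 411, 312, 826 and 304 CPM in flox/WT mice. Vpreb1 measured 479.8, 409, 358 and 459.8 CPM in flox/flox mice, and 295, 208, 662 and 215 CPM in flox/WT mice. In both genes the flox/WT replicate 3 library lay above every flox/flox library and the other 3 flox/WT libraries below every one. Rag1, another listed marker of pro-B and pre-B cells, went the other way. It measured 296, 273, 212 and 288 CPM in flox/WT replicates 1 to 4, lowest in replicate 3. Without this mouse, 3 members were called in proBpreB cells, with Spib beside Spi1 and Ikzf3. The part of the make-up of the sort in these values was not tested.

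Over the stages, 9 of the 10 members were called in at least 1 comparison within a genotype, Irf8 being the exception. Of all 12850 tested genes, 83.7% were called in at least 1 of these 6 comparisons. From proBpreB to immature cells 6 members were higher in flox/flox mice (Pax5, Ikzf3, Spi1, Spib, Pou2af1 and Foxo1) and Irf4 was lower, where 28.7% of all genes were higher and 27.2% lower. In flox/WT mice the same step had 5 members higher, the same without Pou2af1, and 2 lower, Ebf1 and Irf4, where 24% of genes were higher and 25.4% lower. From immature to mature cells 0 members were higher in either genotype. In that step 5 were lower in flox/flox mice (Pax5, Ikzf1, Irf4, Spib and Foxo1), where 13.6% of genes were lower and 12.9% higher, and 4 in flox/WT mice (the same without Foxo1), where 17.1% were lower and 15.6% higher. Mature over proBpreB cells had 4 members higher and 2 lower in flox/flox mice, where 29.7% of genes were higher and 29.5% lower, and 3 members were lower under 6 of the 7 other settings, with Ikzf1 or Spib as the third. In flox/WT mice it had 3 higher and 4 lower, where 29.2% were higher and 29.6% lower. Per kilobase of exon, the members of flox/flox immature cells ran from Spib at 749 ± 111 CPM over Pou2af1 at 422 ± 31.1, Irf8 at 244 ± 11.8 and Spi1 at 96.8 ± 7.78 to Pax5 at 8.30 ± 1.56 (mean ± SD, n = 4). Between Spi1 and Pax5, Foxo1 at 68.7 ± 2.58 and Ikzf1 at 66.8 ± 11.0 lay within their spread of each other, and so did Ikzf3 at 54.3 ± 3.24 and Ebf1 at 46.9 ± 6.83, with Irf4 below them at 27.2 ± 3.81.

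**Figure D3:**
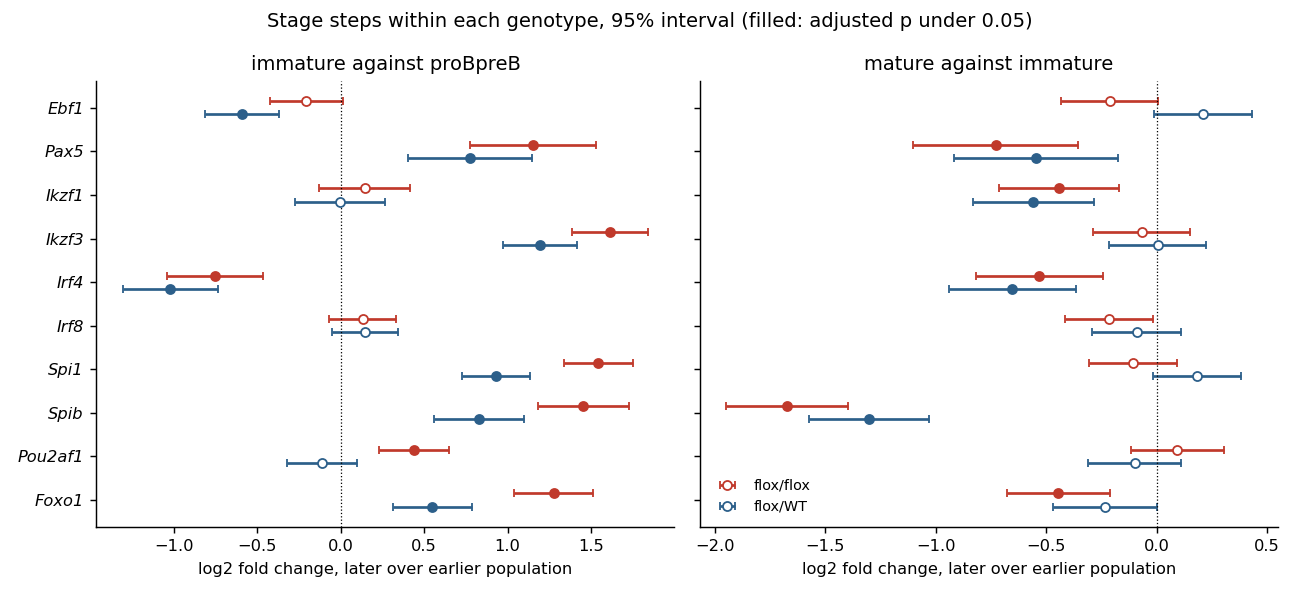
Log2 fold change of immature over proBpreB cells (left) and of mature over immature cells (right) for each member in flox/flox (red) and flox/WT mice (blue), with the 95% interval of the edgeR estimate; filled points have an adjusted p under 0.05. The step to immature cells has the higher estimate in flox/flox mice for 9 of the 10 members. That difference is called for Foxo1, Pou2af1, Spi1 and Spib by the edgeR interaction contrast. Spib has the largest fall to mature cells in both genotypes.

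The balance within related pairs changed with the stage. Per kilobase of exon, the ratio of Spib to Spi1 was 8.32 ± 1.40 in flox/flox and 7.68 ± 0.726 in flox/WT proBpreB cells (mean ± SD, n = 4 each). It was 7.77 ± 1.26 in flox/flox and 7.21 ± 0.845 in flox/WT immature cells, and 2.68 ± 0.793 in flox/flox and 2.58 ± 0.275 in flox/WT mature cells. Spib thus kept about the same excess over Spi1 from proBpreB to immature cells, as both rose, and lost most of it in mature cells. The ratio of Ikzf3 to Ikzf1 was 0.295 ± 0.0593 in flox/flox and 0.322 ± 0.0508 in flox/WT proBpreB cells. It was 0.826 ± 0.122 in flox/flox and 0.737 ± 0.109 in flox/WT immature cells, and 1.06 ± 0.158 in flox/flox and 1.08 ± 0.176 in flox/WT mature cells. Aiolos transcripts went with the later stages and reached the level of Ikaros transcripts in mature cells. The ratio of Irf4 to Irf8 was 0.207 ± 0.0250 in flox/flox and 0.304 ± 0.0705 in flox/WT proBpreB cells. It was 0.112 ± 0.0173 in flox/flox and 0.135 ± 0.00831 in flox/WT immature cells, and 0.0925 ± 0.0254 in flox/flox and 0.0919 ± 0.0187 in flox/WT mature cells. Ratios use the merged exon length of each gene in GENCODE vM21, whose exons may differ from those the authors counted, and they were not tested.

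**Figure D4:**
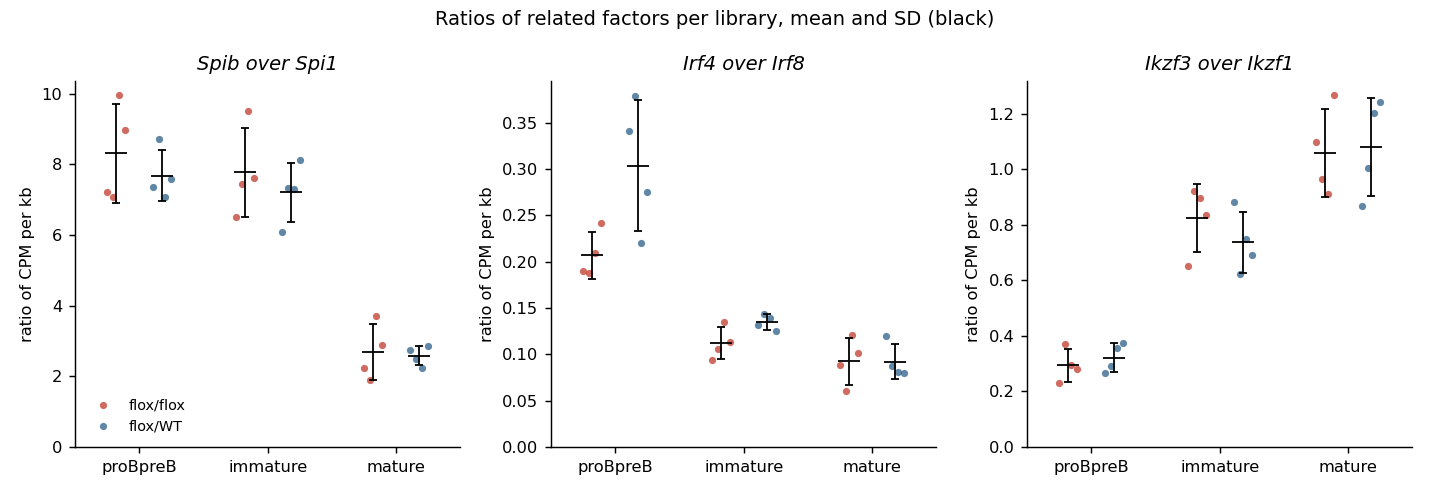
Ratio of CPM per kilobase of exon for Spib over Spi1, Irf4 over Irf8 and Ikzf3 over Ikzf1 in each library, by population and genotype (flox/flox left and red, flox/WT right and blue), with the mean and SD in black. The first ratio is lower in mature cells, the second falls and the third rises after the proBpreB stage in both genotypes.

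Of 17 listed relatives of the members by family (Ebf, Ikaros family, IRF, Spi and Foxo genes), 12 were tested by genotype, and 0 passed in proBpreB or immature cells by edgeR. In mature cells 2 were lower in flox/flox mice, the interferon pathway factors Irf9 (-0.37, adjusted p = 0.0335) and Irf3 (-0.33, adjusted p = 0.0411). From proBpreB to mature cells, 2.75%, 10.5% and 6.62% of all tested genes were lower by genotype, and 3.38%, 10.2% and 9.69% higher. In the 3 contrasts of genotype effects between populations, 0 relatives passed, where 0.786% to 6.14% of all tested genes were called in 1 direction. The median of the tested relatives was -0.22 in proBpreB cells, 0.02 in immature cells and -0.06 in mature cells on the log2 scale. From proBpreB to immature cells Irf5 and Irf2 rose, while Irf4 fell. Irf2 gained 1.45 ± 0.14, adjusted p = 6.76e-10 in flox/flox and 1.08 ± 0.14, adjusted p = 1.83e-07 in flox/WT mice by edgeR. Irf5, which acts in Toll-like receptor signalling, averaged 94.6 ± 9.49 CPM in flox/flox mice, and 118 ± 12.1 CPM in flox/WT mice in proBpreB cells, and 319 ± 18.9 CPM in flox/flox mice, and 383 ± 22.9 CPM in flox/WT mice in immature cells. The step was 1.75 ± 0.10, adjusted p = 2.43e-14 in flox/flox and 1.70 ± 0.10, adjusted p = 6.15e-14 in flox/WT mice by edgeR (log2 ± SE).

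Among 16 partner factors, Lef1 of mature cells and Pou2f2 of proBpreB cells had the largest estimates of those called. In proBpreB cells 0 were higher and 3 lower in flox/flox mice, Pou2f2 (-0.99, adjusted p = 0.0129), the E protein gene Tcf12 (-0.76, adjusted p = 4.22e-05) and the forkhead gene Foxp1 (-0.49, adjusted p = 0.0179), by edgeR. Pou2f2 encodes Oct-2, the octamer factor that OCA-B binds, and averaged 12.7 ± 0.695 CPM in flox/flox mice, and 25.2 ± 2.54 CPM in flox/WT mice (n = 4 each, SD). In immature cells 1 partner was higher, the repressor gene Bach2 (0.48, adjusted p = 0.0275), and 2 were lower, Lef1 (-0.68, adjusted p = 0.00563) and Bcl6 (-0.60, adjusted p = 0.00853). In mature cells 3 were higher and 2 lower. Lef1, a factor of Wnt signalling that marks early B cells, then averaged 73.2 ± 10.5 CPM in flox/flox mice, and 16.5 ± 1.93 CPM in flox/WT mice, a log2 fold change of 2.15 ± 0.18, adjusted p = 3.15e-10. In immature cells it had been lower in flox/flox mice, at 24.7 ± 3.18 CPM in flox/flox mice, and 39.5 ± 4.66 CPM in flox/WT mice. Bcl6, another repressor gene, was lower in flox/flox mice again, at 118 ± 13.7 CPM in flox/flox mice, and 180.3 ± 35.8 CPM in flox/WT mice (-0.61 ± 0.16, adjusted p = 0.00772). The E protein gene Tcf4 (0.55, adjusted p = 0.0014) and Zeb2 (0.51, adjusted p = 0.0239) were higher. The median of the 16 partners was -0.08 in proBpreB cells, -0.02 in immature cells and -0.05 in mature cells. For all tested genes, the shares lower were 2.75%, 10.5% and 6.62% in this order, and the shares higher 3.38%, 10.2% and 9.69%.

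Of 12 genes that Ebf1 and Pax5 are known to activate, 5 were lower in flox/flox proBpreB cells and 0 higher, where neither factor had a call, with a median of -0.33, against 2.75% of all genes lower. Those with the largest estimates were Fcer2a (-1.27, adjusted p = 0.000463), Cr2 (-1.13, adjusted p = 0.00574) and Cd79b (-0.83, adjusted p = 1.17e-06), by edgeR. Cd79b, which encodes a signalling chain of the B cell receptor, averaged 926 ± 36.2 CPM in flox/flox mice, and 1643 ± 219 CPM in flox/WT mice (n = 4 each, SD). Fcer2a and Cr2 are also markers of mature B cells, whose sum had the lower mean in flox/flox proBpreB libraries, with overlapping ranges. In immature cells 4 were higher and 3 lower, with a median of 0.04, against 10.2% of all genes higher and 10.5% lower. The genes that were higher included Vpreb3 (1.17, adjusted p = 5.01e-07) and the surrogate light chain genes Vpreb1 (1.32, adjusted p = 0.0296) and Igll1 (1.14, adjusted p = 0.0447). These last 2 belong to earlier stages and were low here. Vpreb1 measured 4.66 to 14.4 CPM in flox/flox and 2.40 to 4.12 CPM in flox/WT immature cells, and Igll1 6.44 to 16.6 CPM and 3.18 to 7.58 CPM. In mature cells 2 were higher, Igll1 (1.79, adjusted p = 0.00152) and Bst1 (0.73, adjusted p = 0.0303), and 3 lower, among them Cd22 (-0.39, adjusted p = 0.0391), with a median of -0.10. There 9.69% of all genes were higher and 6.62% lower.

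Genes that Pax5 represses did not move 1 way. Of 10 listed, 0 were higher and 1 lower in proBpreB cells of flox/flox mice, 3 higher and 3 lower in immature cells, and 1 higher and 1 lower in mature cells. The medians were 0.26, 0.03 and 0.22 from proBpreB through immature to mature cells. All tested genes had 3.38%, 10.2% and 9.69% higher and 2.75%, 10.5% and 6.62% lower in the same order. Sdc1, which encodes the plasma cell marker syndecan-1, was lower in all 3 populations, at -0.84 with an adjusted p of 0.00741 in proBpreB, -0.85 with 0.00862 in immature and -2.48 with 6.26e-09 in mature cells (edgeR). Flt3, a cytokine receptor of progenitors, was higher in immature cells at 6.17 ± 1.96 CPM in flox/flox mice, and 3.14 ± 1.42 CPM in flox/WT mice, with 0.97 ± 0.26, adjusted p = 0.00835. It was also higher in mature cells, at 9.59 ± 2.90 CPM in flox/flox mice, and 3.25 ± 0.578 CPM in flox/WT mice, with 1.56 ± 0.25, adjusted p = 5.47e-05. Prdm1, which encodes the plasma cell factor Blimp-1, was lower in immature cells, at 1.12 ± 0.557 CPM in flox/flox mice, and 4.39 ± 2.34 CPM in flox/WT mice (-1.96 ± 0.49, adjusted p = 0.00389), from summed counts of 35 in flox/flox and 172 in flox/WT mice.

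Known targets of Foxo1 were called in both directions in immature flox/flox cells, where Foxo1 was higher. Of 10 targets, 1 was higher and 2 lower in immature cells, and 2 higher and 0 lower in mature cells, with medians of -0.02 and -0.02. Among all tested genes, 10.2% were higher and 10.5% lower in immature cells, and 9.69% higher and 6.62% lower in mature cells. Cdkn1b, which encodes the cell cycle inhibitor p27, averaged 38.2 ± 11.2 CPM in flox/flox mice, and 18.3 ± 4.55 CPM in flox/WT mice in immature cells, a log2 fold change of 1.07 ± 0.21, adjusted p = 0.000456 by edgeR. Rag1 was among the lower targets there (-0.87, adjusted p = 0.0499). In mature cells the recombination gene Rag2 (1.36, adjusted p = 0.0108) and the interleukin 7 receptor gene Il7r (0.94, adjusted p = 0.0276) were higher, from low levels. Rag2 averaged 3.00 ± 0.758 CPM in flox/flox mice, and 1.16 ± 0.108 CPM in flox/WT mice, and Il7r 12.2 ± 2.73 CPM in flox/flox mice, and 6.32 ± 2.74 CPM in flox/WT mice. In proBpreB cells, where Foxo1 had no call, 1 target was higher and 3 lower, with a median of -0.27, against 3.38% of all genes higher and 2.75% lower. Klf2, a factor of lymphocyte trafficking, averaged 129 ± 15.6 CPM in flox/flox mice, and 237 ± 36.1 CPM in flox/WT mice (-0.88 ± 0.13, adjusted p = 1.91e-05). The chemokine receptor gene Ccr7 was also lower (-0.82, adjusted p = 6.3e-05).

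Of 10 genes that PU.1, Spi-B, the IRF pair and OCA-B are known to control, 4 were lower in flox/flox proBpreB cells and 0 higher. In immature cells 4 were lower and 0 higher, and in mature cells 5 were lower and 1 higher, with medians of -0.32, -0.17 and -0.38 from proBpreB to mature cells. In the same order, 2.75%, 10.5% and 6.62% of all tested genes were lower, and 3.38%, 10.2% and 9.69% higher. Ciita, the transactivator of MHC class II genes, was lower in flox/flox mice throughout. It averaged 21.6 ± 2.04 CPM in flox/flox mice, and 42.5 ± 6.45 CPM in flox/WT mice in proBpreB cells. In immature cells it averaged 67.1 ± 11.6 CPM in flox/flox mice, and 164 ± 31.8 CPM in flox/WT mice, and in mature cells 293 ± 72.1 CPM in flox/flox mice, and 555 ± 92.1 CPM in flox/WT mice. The edgeR log2 fold changes of Ciita were -0.97 ± 0.17, adjusted p = 0.000284, -1.29 ± 0.17, adjusted p = 9.6e-07 and -0.92 ± 0.16, adjusted p = 0.00013 from proBpreB to mature cells. Ms4a1 (CD20), a marker of mature B cells too, averaged 41.6 ± 15.3 CPM in flox/flox mice, and 143 ± 32.5 CPM in flox/WT mice in proBpreB cells (-1.78 ± 0.19, adjusted p = 7.3e-08). Fcgr2b, the inhibitory Fc receptor, averaged 31.7 ± 2.74 CPM in flox/flox mice, and 60.4 ± 7.05 CPM in flox/WT mice there (-0.93 ± 0.11, adjusted p = 6.58e-07). The target lists share genes with each other and with the marker lists, among them Cr2, Il7r, Sdc1, Fcer2a and Ms4a1, so their counts are not independent.

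The genes whose log2 CPM was most like each member over the 24 libraries, among 10284 genes, are given as a description. The libraries share 8 mice and fall into 3 populations, and how far a correlation carries stage or genotype was not tested. Spi1 was most like Cd37 (0.98) and Cnr2 (0.98) by Pearson's r, and Ikzf3 like Cnr2 (0.98) and Scd1 (0.98). Cd37, a tetraspanin of B cells, averaged 314 ± 18.8 CPM in flox/flox proBpreB cells, against 442 ± 22.0 CPM in flox/WT proBpreB cells, and 1145 ± 149.5 CPM (flox/flox) and 991 ± 83.2 CPM (flox/WT) in immature cells. Cnr2, the cannabinoid receptor of lymphocytes, averaged 17.5 ± 0.974 CPM (flox/flox) and 44.2 ± 9.95 CPM (flox/WT) in proBpreB cells, and 355 ± 20.4 CPM (flox/flox) and 318 ± 32.6 CPM (flox/WT) in immature cells. Both had the lower flox/flox values in proBpreB cells that Spi1 had. Foxo1 was most like Serinc3 (0.94) and Tob1 (0.94), and Pou2af1 like Serinc3 (0.77) and Kdm4b (0.77). Serinc3 averaged 4572 ± 206 CPM in flox/flox immature cells, against 3625 ± 178 CPM in flox/WT immature cells, and 3939.7 ± 486 CPM (flox/flox) and 3057 ± 263 CPM (flox/WT) in mature cells. Irf4 was most like Cecr2 (0.96) and Hdac8 (0.95), Spib like Tmem2 (0.94) and Hivep3 (0.92), Pax5 like Tet3 (0.90) and Lclat1 (0.89) and Ebf1 like Tax1bp3 (0.89) and Brd3 (0.87). Lower values were found for Irf8, As3mt (0.78) and Ccdc23 (0.77), and for Ikzf1, Atp2a2 (0.84) and Eif1ad (0.81).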

How the data were processed

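Per the labels' protocols, cells were sorted straight into lysis buffer and RNA-seq libraries were made with a SMARTer low input kit. HISAT2 and featureCounts are among the tools in the submitters' processing notes, which name the build mm10. Versions, settings, annotation and use of strand were not given in the sources used here. The authors deposited raw counts for 24421 genes, which were tested here. They also deposited a normalised signal for 17514 genes, which is each count over a single factor per library (to a relative spread of 9.88e-15) and was not tested. Table columns carry running numbers, which were matched to the numbers at the start of the sample titles.

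The test was the robust quasi-likelihood fit of edgeR 4.0.16 (R 4.3.3) with TMM scaling and the filterByExpr filter, over all 24 libraries at once, with 18 residual degrees of freedom and 12850 genes. Benjamini-Hochberg adjustment was applied within each of 12 comparisons (3 of genotypes, 6 of stages and 3 of genotype effects between populations). Fold changes are edgeR estimates, with an SE derived from the estimate and its F statistic, and intervals are the estimate ± 1.96 SE. They are approximate and narrower than the test implies. An interval can exclude 0 where the unadjusted p is above 0.05, as for the genotype estimate of Ebf1 in immature cells. Alternatives were RLE and upper-quartile scaling, no low-count filter, at least 10 CPM in 4 libraries, leaving out each mouse, only the groups compared, a replicate block and DESeq2 1.42.0. The edgeR script was tested on simulated counts. Replicates are separate mice, per the host numbers in the labels, and the closest pair of libraries of a group differed by a chi-square of 6.05 per degree of freedom, so none was treated as a repeat deposit.

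Libraries of the same mouse are paired by animal, per the labels. Their deviations from the group means correlated at -0.284 to 0.372 in 24 pairs over 5000 genes, 16 of them above 0.1.

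The members, lists and tests were chosen with earlier results of these data known. The text names all 10 members, Vhl, the 2 genes most like each member by Pearson's r (mean log2 CPM of at least 2, prior count 2) and up to 4 called genes of each list with the largest estimates, of which some genes are not reported here. The surrogate light chain genes and Rag1 of single libraries and the marker genes Fcer2a and Siglech were named after their values were seen. Gene positions are from GENCODE vM21 on GRCm38, and promoters from the RefSeq table.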

Additional observations from a re-analysis of the deposited data

Results flagged for a closer look

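In 3 of 60 groups of 4 libraries, 1 library stood apart from the other 3 by Dixon's criterion, and chance flags about 1 in 20 groups. Spib of immature flox/flox replicate 3 measured 2547 CPM, Pou2af1 of mature flox/flox replicate 3 measured 1314 CPM, and Foxo1 of immature flox/flox replicate 1 measured 629 CPM. Each was the highest of its group. Without the mouse concerned, the edgeR genotype estimates were 0.14 for Spib in immature cells, 0.46 for Pou2af1 in mature cells and 0.60 for Foxo1 in immature cells (log2), with adjusted p-values of 0.503, 0.00846 and 0.00224.

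The genotype effect differed between populations in 5 cases by the edgeR interaction contrast. Immature minus proBpreB cells gave 0.6106 for Spi1, 0.6225 for Spib, 0.5475 for Pou2af1 and 0.7256 for Foxo1, and mature minus proBpreB cells 0.7393 for Pou2af1, on the log2 scale.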

How the results depend on the processing

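Of 840 values of single members under settings that kept all mice, 814 kept their direction and their side of the threshold, 5 lost a call, 14 gained 1 and 7 changed sign. Of 960 values with a mouse left out, 896 kept both, 30 lost a call, 9 gained 1 and 25 changed sign. In a fit of only the groups compared, the members called by genotype were 1 in proBpreB and 1 in mature cells (2 each in the fit of all groups), and 1296 genes were called in mature cells against 2096. For the difference mature minus proBpreB, 2 members were called with the replicate block and 2 with DESeq2, against 1, and DESeq2 called 601 genes against 393. Leaving out each mouse gave 1 to 3 members and 466 to 1015 genes called by genotype in proBpreB cells, 1 to 2 members in immature and 1 to 2 in mature cells. For the differences it gave 2 to 4 members and 805 to 1807 genes for immature minus proBpreB, 661 to 1129 genes for mature minus immature, and 1 to 2 members and 254 to 444 genes for mature minus proBpreB. The causes were not tested.

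No value that changed sign was called, and those that did so under settings that kept all mice were close to 0. Some that did so with a mouse left out were further from 0 with all mice. Among them were Pax5 by genotype in mature cells (-0.18), Pax5 mature minus immature (-0.18) and Ikzf1 immature minus proBpreB (0.15). The genotype estimate of Pax5 in immature cells was -0.0124 without the low-count filter, and that of Ikzf3 0.0024 under upper-quartile scaling and 0.00562 with at least 10 CPM. In flox/WT mice, Ikzf1 of immature over proBpreB cells was 0.00136 without the filter and 0.0119 with the replicate block, and Ikzf3 of mature over immature cells -0.00722 without the filter and -0.00275 with only the groups compared. With a mouse left out, genotype estimates ran from -0.12 to 0.0878 for Pax5, -0.054 to 0.0173 for Ikzf3 and -0.13 to 0.0279 for Irf4 in immature cells and -0.33 to 0.00414 for Pax5 in mature cells. Stage estimates ran from -0.13 to 0.00794 for Ikzf3 (mature over immature, flox/flox), -0.14 to 0.21 for Ikzf1 (immature over proBpreB, flox/WT) and -0.0396 to 0.0189 for Ikzf3 (mature over immature, flox/WT). Differences ran from -0.0644 to 0.28 for Ikzf1 and -0.091 to 0.0524 for Irf8 (immature minus proBpreB), -0.39 to 0.0173 for Pax5 and -0.14 to 0.00309 for Ikzf3 (mature minus immature), and -0.16 to 0.0165 for Ebf1 (mature minus proBpreB).

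The replicate block, which is the mouse for stages and differences, gave the 3 added calls stated with Spib and Foxo1 and changed no other call of a member. Between genotypes the labels tie a shared replicate number to no common animal, litter or day. Deviations of same-numbered libraries correlated at -0.302 to 0.544 in 12 pairs, 5 of which exceeded 0.1 and were highest for their own number. Of these 5, 3 were among the 4 pairs of mature cells (0.422, 0.13 and 0.544), a hint from the data and not from the design. With that number as the block, the genes called by genotype were 898 in proBpreB cells, 2850 in immature cells and 2301 in mature cells, against 788, 2656 and 2096 without it, with 2, 2 and 2 members among them. With 4 mice a genotype and 3 counts worth up to 0.382 CPM before TMM scaling, the lowest value of a member, Pax5 at 24.0 CPM in 1 mature library, lay far above that limit.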
